A study of Mus musculus with 7 samples.

Results

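The genes described here are 10 chemokine ligands, Ccl2, Ccl7, Ccl12, Ccl6, Ccl9, Cxcl1, Cxcl10, Ppbp, Cxcl12 and Cx3cl1, out of 12393 genes with a probe set of their own on the array. They were taken by name, with earlier results of these data known. Every probe set that the platform annotation gives to exactly 1 of these symbols was used, which made 15 of 22626 probe sets. Of the 10 genes, 6 had 1 probe set, 3 had 2 and Cx3cl1 had 3. The study measured RNA of whole hearts on Affymetrix 3' expression arrays. There were 3 arrays from KLF15-null mice, labelled as null for the gene of Krüppel-like factor 15 (a transcriptional regulator of metabolism in heart and liver), and 4 from wild-type (WT) mice. Both groups were labelled as male C57/BL6 mice, 3 to 4 months old and fasted for 18 h, so the fast is shared and no fed heart stands beside it. The sources used here do not give the part of Klf15 that was deleted or how the 2 groups were bred. Nothing in the labels says that the arrays of a group came from separate animals, and p-values measure only the spread between these arrays.

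Chemokines are small secreted proteins that bind G protein-coupled receptors on leukocytes and direct their migration. They are sorted by the spacing of their first cysteines into the CC, CXC and CX3C families. Many, such as Ccl2, are inducible and are transcribed in response to inflammatory signals through NF-kB or interferon factors, whereas Cxcl12 is made constitutively by stromal cells. In the heart Ccl2 and its receptor Ccr2 are known for the recruitment of monocytes after injury.

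Values are log2 signals per probe set, and a difference is always KLF15-null minus WT. Array medians were 6.22 to 6.23 in KLF15-null and 6.31 to 6.33 in WT hearts, while the 98th percentiles were 11.86 to 12.02 in KLF15-null and 11.43 to 11.74 in WT hearts. The brightest 10% of probe sets were higher in KLF15-null hearts by a median of 0.30. On their brightest probe sets the 8 cardiomyocyte marker genes were all at or above the 97.9th percentile of the KLF15-null means and the 98.1th of the WT means. The label of the sex did not match the sex-linked probe sets. Xist, an RNA of the inactive X chromosome, had 8.57 to 9.62 in KLF15-null and 9.81 to 9.94 in WT hearts on its brightest probe set (91.4th percentile of the 7-array mean), and all 7 probe sets of the Y-linked genes Kdm5d, Uty, Eif2s3y and Usp9y were at or below the 27.3th percentile. Klf15 had 6.52, 6.23 and 6.24 in KLF15-null hearts, against 8.68, 8.98, 8.73 and 9.08 in WT hearts. The groups did not overlap, and the difference was -2.54 (SE 0.13, limma adjusted p = 1.26e-06). Since the deleted part is unknown, this probe set may not check the genotype.

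Of the 10 ligands 8 were higher in KLF15-null hearts on at least 1 probe set, and the monocyte chemokines Ccl12, Ccl2 and Ccl7 had the widest differences. Probe sets were tested where their mean over the 7 arrays reached the 40th percentile (log2 5.74), and 12 of the 15 did. Of these 12, 9 were higher and 1 lower at an adjusted p under 0.05 and 2 did not pass, where 26.8% of all 13576 tested probe sets were higher and 23.8% lower. The 9 higher probe sets belonged to 8 of the 10 genes, Ccl6 having both of its probe sets among them, and 8 of the 9 were at least 2-fold higher. Genes with several probe sets have more chances to be among these 8. On their brightest probe sets Cxcl12 did not pass and Cx3cl1 was lower. With 1 probe set per gene, 27.4% of all tested genes were higher and 19.6% lower. The median difference of the 12 was 1.35, against 0.002 over all tested probe sets. Ccl7, Ccl12 and Cxcl10 had WT means below the filter level and were tested because of their KLF15-null values, so the count of tested probe sets favours genes that are high in KLF15-null hearts. Without the filter 10 of the 15 were higher and 1 lower, where 18.5% and 16.9% of all probe sets were. The 3 KLF15-null values lay wholly above or below the 4 WT values on 11 of the 15, against 39.9% of all probe sets. For each of these 11 an exact permutation test with 35 possible splits gave a two-sided p of 0.0286, the smallest the design allows. The ligands were chosen with earlier results of these data known, so the shares given here describe them and test nothing.

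**Figure D1:**
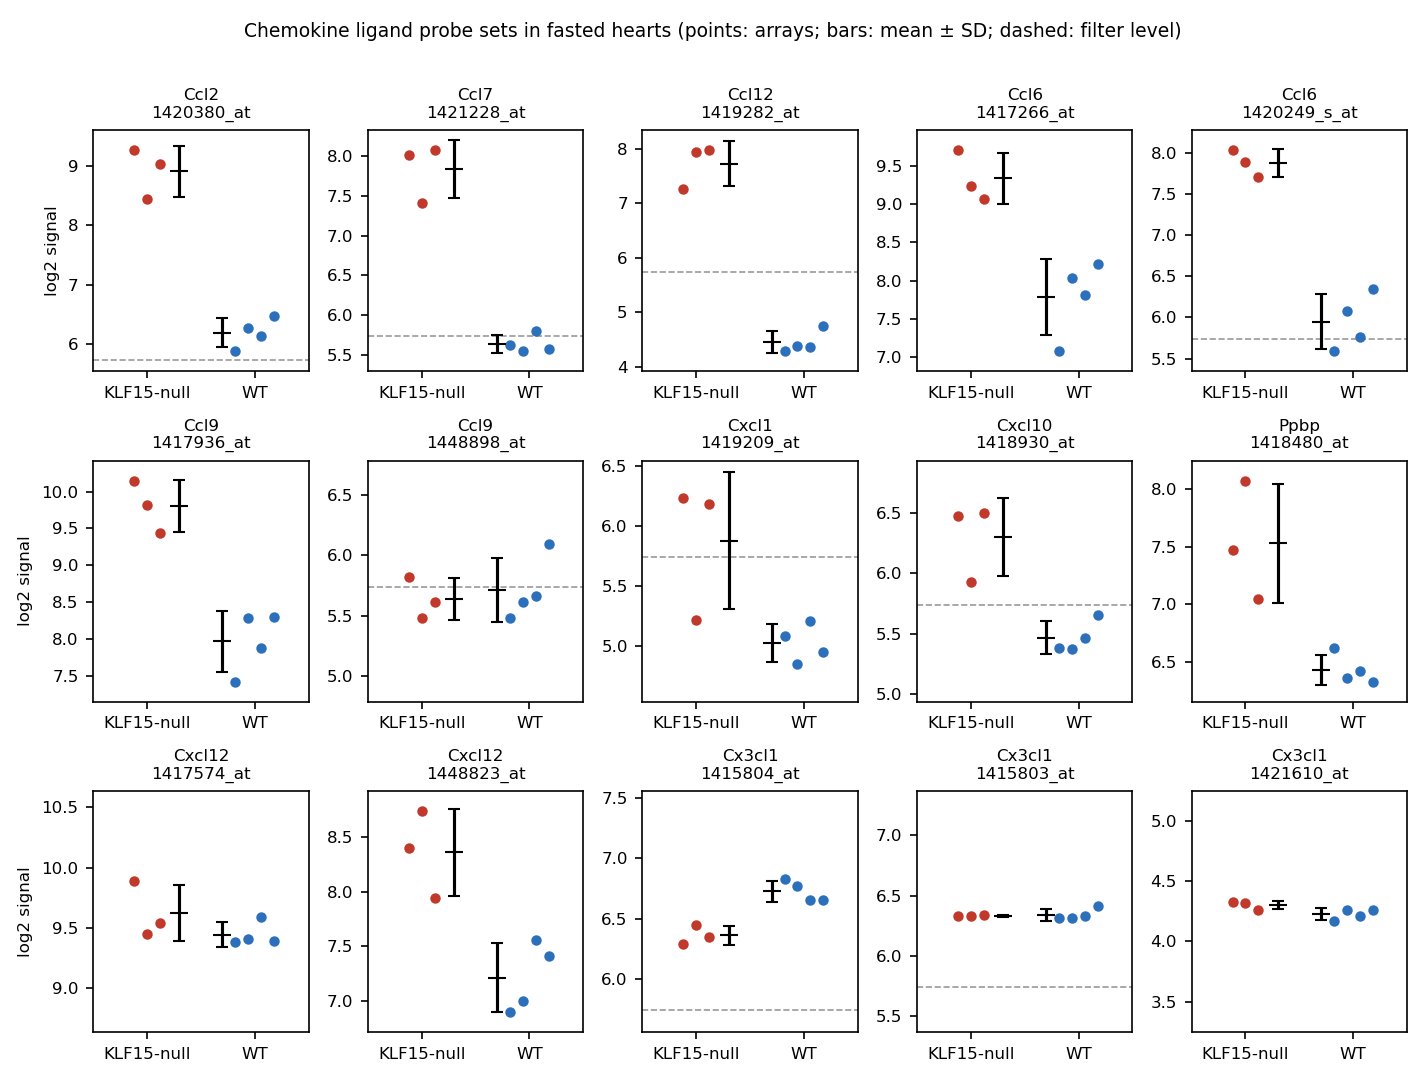
Log2 signal (vertical axis, each panel with its own range) of the 15 chemokine ligand probe sets on the 3 KLF15-null and 4 WT arrays; points are arrays, bars are the mean ± SD and the dashed line is the filter level of 5.74. Ccl2, Ccl7 and Ccl12 are the panels with the widest gap between the groups, and only the 1415804_at probe set of Cx3cl1 is lower on all KLF15-null arrays.

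Ccl2, Ccl7 and Ccl12 code for members of the monocyte chemoattractant proteins and are ligands of the receptor Ccr2. Ccl2 (probe set 1420380_at) had 9.26, 8.43 and 9.02 in KLF15-null hearts, against 5.89, 6.28, 6.14 and 6.48 in WT hearts. The WT mean was at the 48th percentile of all probe sets and the KLF15-null mean at the 86th. The lowest KLF15-null array stood well above the highest WT array. Ccl2 was 6.53-fold higher, a difference of 2.71 (95% interval 2.26 to 3.16, adjusted p = 7.40e-06). Ccl7 (1421228_at) had 8.01, 7.41 and 8.07 in KLF15-null hearts, against 5.63, 5.55, 5.81 and 5.58 in WT hearts. Its difference was 2.19 (95% interval 1.84 to 2.53, adjusted p = 5.76e-06), and its WT values lay around the filter level. Ccl12 (1419282_at), a mouse chemokine closely related to Ccl2, had 7.26, 7.94 and 7.98 in KLF15-null hearts, against 4.30, 4.39, 4.37 and 4.75 in WT hearts. The WT mean was at the 14.7th percentile, among the dimmest probe sets of the array. The difference of 3.27 (95% interval 2.87 to 3.68, adjusted p = 1.74e-06) was the 10th largest rise of all tested probe sets. That of Ccl2 was the 30th and that of Ccl7 the 75th. These ranks leave out probe sets below the filter, such as Cxcl2 with a rise of 2.47. Ccl7 and Ccl12 were ranked only because their KLF15-null values brought them past the filter. The table holds no detection calls, so for Ccl7 and Ccl12 the fold depends on a WT signal that may be background.

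Ccl6 and Ccl9 code for CC chemokines that bind the receptor Ccr1 and are made by macrophages and other myeloid cells in mice. On their brighter probe sets the WT means were at the 73.7th percentile of the array for Ccl6 and the 76.2th for Ccl9, and both genes rose. Ccl6 (1417266_at) had 9.71, 9.24 and 9.07 in KLF15-null hearts, against 7.08, 8.03, 7.81 and 8.22 in WT hearts, a difference of 1.55 (SE 0.26, adjusted p = 0.000816). On its second probe set, 1420249_s_at, it had 8.04, 7.90 and 7.71 in KLF15-null hearts, against 5.59, 6.08, 5.77 and 6.35 in WT hearts. That difference was 1.93 (SE 0.17, adjusted p = 1.95e-05). The probe sets of Ccl6 did not pass a test of their own difference in response (-0.38, exact permutation p = 0.0857). Ccl9 (1417936_at) had 10.15, 9.83 and 9.44 in KLF15-null hearts, against 7.42, 8.29, 7.87 and 8.30 in WT hearts, and was 3.57-fold higher (difference 1.83, SE 0.24, adjusted p = 0.000167). The other probe set of Ccl9, 1448898_at, did not follow. It had 5.82, 5.48 and 5.62 in KLF15-null hearts, against 5.48, 5.62, 5.66 and 6.10 in WT hearts, below the filter and overlapping (difference -0.08, adjusted p = 0.730 without the filter). The responses of the 2 Ccl9 probe sets differed by 1.91 (exact permutation p = 0.0286, 0.0429 adjusted over the 6 probe set pairs compared).

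Among the CXC ligands, Cxcl10 and Ppbp rose and Cxcl1 did so in the fit without a filter. Cxcl1, which attracts neutrophils through Cxcr2, was below the filter (1419209_at). It had 6.23, 5.22 and 6.18 in KLF15-null hearts, against 5.09, 4.86, 5.21 and 4.95 in WT hearts. Its lowest KLF15-null value, on array 2, was barely above the highest WT value, and the SD of the KLF15-null group was 0.57 (n = 3). The difference was 0.85 (95% interval 0.36 to 1.34) with an adjusted p of 0.0136 in the fit without a filter. Leaving out KLF15-null array 1 or 3 ended that call (adjusted p = 0.0546 and 0.0735). Cxcl10 (1418930_at), an interferon-induced ligand of the T cell receptor Cxcr3, had 6.48, 5.93 and 6.50 in KLF15-null hearts, against 5.38, 5.37, 5.47 and 5.66 in WT hearts. The groups were apart, by 0.83 on average (SE 0.14, adjusted p = 0.000969), from a WT mean at the 35.3th percentile. Ppbp (1418480_at), the precursor of a chemokine stored in platelet granules, had 7.47, 8.07 and 7.05 in KLF15-null hearts, against 6.62, 6.36, 6.42 and 6.33 in WT hearts. It was 2.14-fold higher (difference 1.10, SE 0.20, adjusted p = 0.00151). When arrays were weighted by their quality the difference was 0.72, still past the threshold.

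Cxcl12, the constitutive stromal chemokine that holds progenitor cells through Cxcr4, gave 2 different answers. On its bright probe set, 1417574_at, it had 9.89, 9.45 and 9.54 in KLF15-null hearts, against 9.38, 9.41, 9.59 and 9.39 in WT hearts. The groups overlapped and the difference of 0.18 did not pass the threshold (95% interval -0.11 to 0.47, adjusted p = 0.276). It was smaller than the median shift of 0.30 of the brightest 10% of probe sets. On 1448823_at it had 8.40, 8.74 and 7.95 in KLF15-null hearts, against 6.90, 7.0, 7.56 and 7.41 in WT hearts. Here the groups were apart, by 1.15 (SE 0.21, adjusted p = 0.00147). The responses of the 2 probe sets differed by 0.97 in size (exact permutation p = 0.0286, 0.0429 adjusted over the 6 pairs). The sources used here do not say which transcripts of Cxcl12 each probe set reads.

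Cx3cl1, or fractalkine, is anchored in the membrane of endothelial and other cells until it is shed by the proteases Adam10 and Adam17. It was the one ligand with no probe set called higher, with or without the filter. On 1415804_at it had 6.29, 6.45 and 6.35 in KLF15-null hearts, against 6.83, 6.77, 6.66 and 6.66 in WT hearts. All KLF15-null values were lower, by 0.37 on average (SE 0.084, adjusted p = 0.00504). On 1415803_at the KLF15-null values of 6.33, 6.33 and 6.34 lay among the WT values of 6.31, 6.31, 6.33 and 6.42 (difference -0.01, 95% interval -0.17 to 0.15, adjusted p = 0.90). On the dim 1421610_at it had 4.32, 4.32 and 4.26 in KLF15-null hearts, against 4.17, 4.26, 4.21 and 4.26 in WT hearts. That difference was 0.08, with an adjusted p of 0.279 without the filter. The response of 1415804_at differed from those of 1415803_at and 1421610_at by -0.35 and -0.44 (exact permutation p = 0.0286 for each, 0.0429 adjusted). All 3 probe sets of Cx3cl1 hold values that are exactly equal on several arrays, as do the dim probe set of Ccl9 and 47.3% of all probe sets. On their brightest probe sets both sheddases were higher, Adam10 with 8.91, 9.06 and 9.03 in KLF15-null hearts, against 7.96, 8.12, 8.21 and 8.12 in WT hearts (difference 0.90, adjusted p = 7.51e-05), and Adam17 by 0.52 (adjusted p = 0.00513). Their other probe sets went the other way. Adam10 was 0.30 lower on 1450104_at (adjusted p = 0.0252) and 1.47 lower on 1450105_at (6.53e-06 without the filter), and Adam17 was 0.55 lower on 1421859_at (adjusted p = 0.000403) and 0.64 lower on 1421857_at (0.000781 without the filter).

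**Figure D2:**
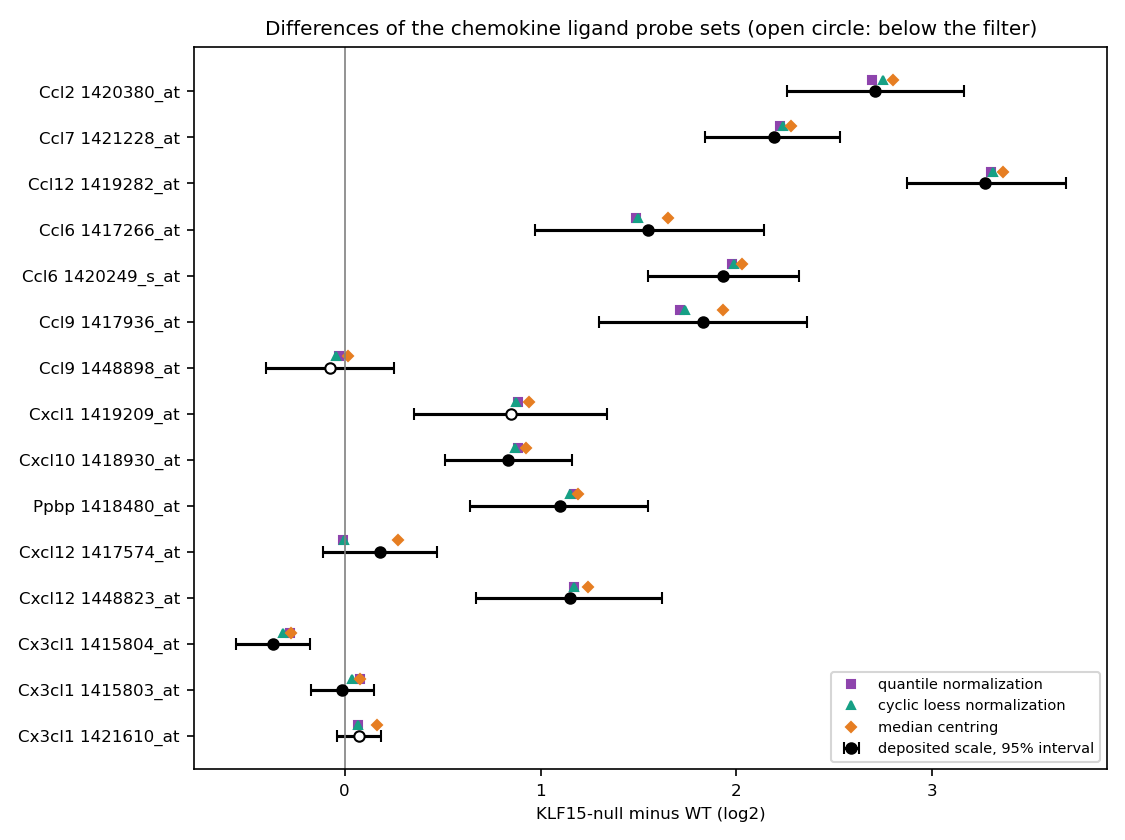
Difference KLF15-null minus WT (log2, horizontal axis) of each chemokine ligand probe set on the deposited scale with its 95% interval (black), and under 3 other scalings of the arrays (coloured); open circles mark probe sets below the filter. The 9 higher probe sets keep intervals above 0 and the scalings move them little, while Cxcl12 on 1417574_at and Cx3cl1 on 1415803_at lie at 0 or change sign.

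The KLF15-null arrays did not rank alike for all ligands. Array 2 had the lowest KLF15-null value for Ccl2, Ccl7, Cxcl1 and Cxcl10. By contrast array 3 was lowest for Ccl6, Ccl9 (1417936_at), Ppbp and Cxcl12 on 1448823_at, and array 1 was lowest for Ccl12. Ppbp and Cxcl12 on 1448823_at were highest on array 2. Among the WT arrays, array 1 was lowest and array 4 highest for Ccl2, Ccl12, both probe sets of Ccl6 and, with array 2 close by, Ccl9. The range among WT arrays reached 1.14 for Ccl6 on 1417266_at, wider than the 0.646 among KLF15-null arrays. For Cxcl1 and Ppbp the KLF15-null range was wider (1.01 and 1.03, against 0.359 and 0.291 in WT). The low value on KLF15-null array 2 was not particular to ligands. The endothelial markers Pecam1 and Emcn were also lowest there, while Csf1r was highest there on its brightest probe set. With 3 and 4 arrays these orders are a description.

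**Figure D3:**
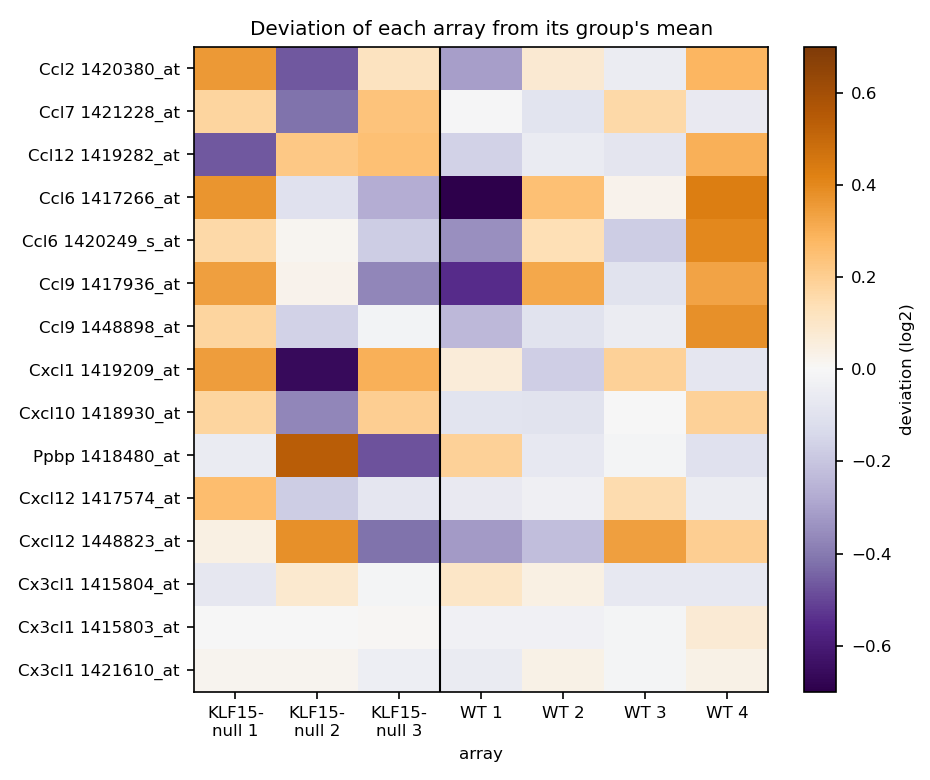
Deviation of each array from the mean of its own group (log2, colour) for the 15 probe sets (rows) on the 3 KLF15-null and 4 WT arrays (columns). Ccl2, Ccl7, Cxcl1 and Cxcl10 share a low value on KLF15-null array 2, where Ppbp is 0.54 above its group mean, and Ccl6 and Ccl9 share a low value on WT array 1.

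Most chemokine genes lie in clusters, and the ligands named here were set beside their neighbours in the RefSeq gene order of GRCm38.p6. On chromosome 11, Ccl2, Ccl7, Ccl11, Ccl12, Ccl8 and Ccl1 follow each other. Between the higher members Ccl7 and Ccl12, the eosinophil chemokine Ccl11 was dim, with 5.78, 5.21 and 5.09 in KLF15-null hearts, against 4.79, 4.88, 4.88 and 4.88 in WT hearts (difference 0.50, adjusted p = 0.0216 without the filter). Ccl8 was 0.64 higher (adjusted p = 0.0494, 0.0670 without the filter) with overlapping groups, and Ccl1 differed by -0.08 (adjusted p = 0.526 without the filter). In the next cluster, Ccl9 and Ccl6 stand between Ccl5 at 0.22 (adjusted p = 0.382), Ccl3 at 0.50 (adjusted p = 0.00114 without the filter) and Ccl4 at 0.12 (adjusted p = 0.404).

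On chromosome 5, Cxcl2, Cxcl5 and Pf4 were higher beside Cxcl1 and Ppbp. Cxcl2, next to Cxcl1 and like it a ligand of Cxcr2, had 6.68, 6.44 and 7.45 in KLF15-null hearts, against 4.34, 4.45, 4.43 and 4.33 in WT hearts. Its difference was 2.47, beside 0.85 for Cxcl1 (adjusted p = 1.76e-05 without the filter). Cxcl5 had 6.40, 5.56 and 5.69 in KLF15-null hearts, against 4.09, 3.97, 4.03 and 3.91 in WT hearts, a difference of 1.88 (adjusted p = 3.42e-05 without the filter). Both had dim WT means, at the 13.5th and the 5.99th percentile, and means over the 7 arrays below the filter. Pf4, platelet factor 4 and a neighbour of Ppbp, had 9.40, 9.75 and 9.40 in KLF15-null hearts, against 8.02, 8.27, 8.67 and 8.67 in WT hearts. It was 1.11 higher (adjusted p = 0.000681), beside 1.10 for Ppbp. Cxcl9, with 1 coding gene between it and Cxcl10, differed by 0.35, not past the threshold (adjusted p = 0.0725), and Cxcl15 differed by 0.02.

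**Figure D4:**
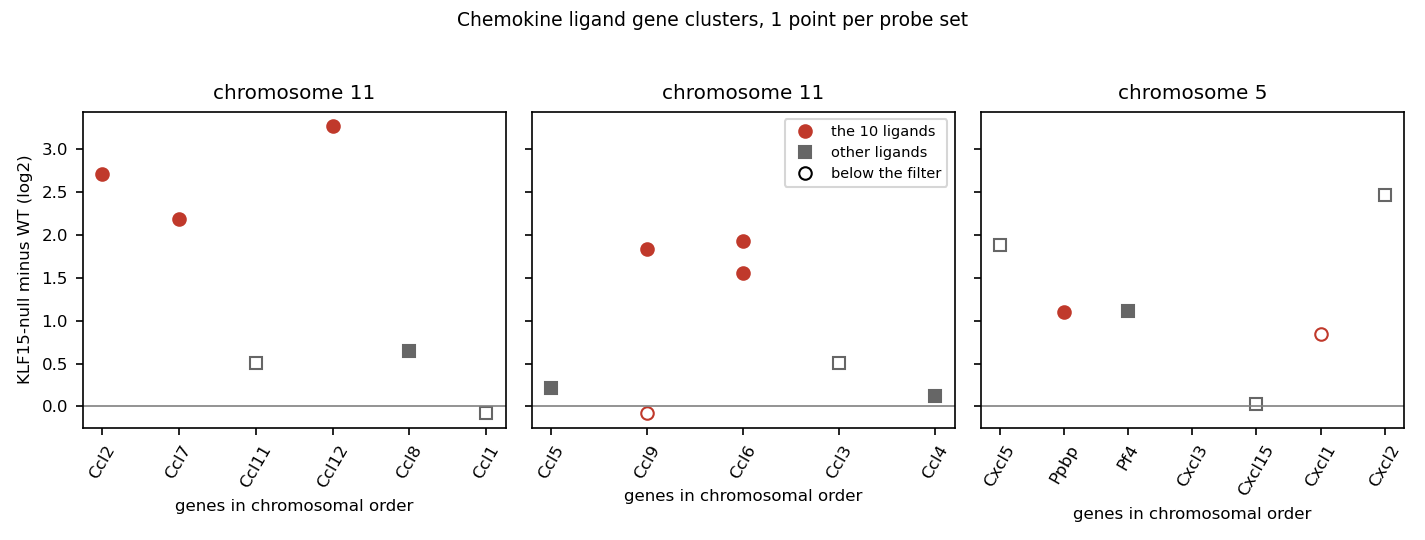
Difference KLF15-null minus WT (log2, vertical axis) of chemokine ligand genes in chromosomal order (horizontal axis) in 2 clusters of chromosome 11 and 1 of chromosome 5, with 1 point per probe set; circles are the ligands described here, squares other ligands, and open symbols lie below the filter. High and low differences stand next to each other, such as Ccl12 at 3.27 beside Ccl11 at 0.50 and Ccl8 at 0.64, and Cxcl3 has no point.

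Of 15 other CC ligands 7 were tested, and 2 were higher (Ccl17 by 1.19 and Ccl8), 0 lower and 5 not past the threshold, with a median of 0.12, where 27.4% of all 8404 tested genes were higher, 19.6% lower and the median was 0.025. Ccl17 had a WT mean below the filter level and was tested because of its KLF15-null values. Without the filter 3 of their 14 probe sets were higher and 0 lower, against 18.5% and 16.9% of all probe sets. Of 12 other CXC and C ligands 6 were tested, with 2 higher (Cxcl14 and Pf4), 1 lower (Cxcl16) and a median of 0.10. Without the filter 7 of their 15 probe sets were higher and 1 lower, against 18.5% and 16.9% of all. Cxcl14 was 0.74 higher on its brightest probe set (adjusted p = 0.000590) and 2.78 higher on the other (adjusted p = 8.11e-06). That other probe set had a WT mean below the filter level and was tested because of its KLF15-null values. Cxcl16, a membrane-bound ligand, was 0.47 lower on its bright probe set (adjusted p = 0.00976) and 0.74 higher on a dim one (adjusted p = 7.70e-05 without the filter).

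Most chemokine receptors were too dim to be tested. Of 19 receptors 4 were tested, and limma called 0 higher and 1 lower at an adjusted p under 0.05, with a median of -0.10. Ccrl2, a receptor-like protein that binds chemerin, was the lower one, with 6.44, 6.46 and 6.51 in KLF15-null hearts, against 7.56, 7.52, 7.33 and 7.21 in WT hearts (difference -0.93, adjusted p = 6.59e-05). Ccr2, which binds Ccl2, Ccl7 and Ccl12, differed by 0.44 on its brightest probe set, not past the threshold (adjusted p = 0.0897), by 0.78 on 1421186_at (adjusted p = 0.0242 without the filter) and by 0.03 on 1421187_at. Ccr1, which binds Ccl6 and Ccl9, was 0.83 and 0.65 higher on its dim probe sets (adjusted p = 0.00866 and 0.0180 without the filter). Cxcr2 differed by -0.15 (adjusted p = 0.311), and below the filter Cxcr3 and Cxcr4 differed by 0.10 each (adjusted p = 0.481 and 0.599). Cx3cr1 differed by -0.03 on its brighter probe set, where all 4 WT arrays held the same value of 5.34. Over all 24 receptor probe sets 5 were higher without the filter, a share near the 18.5% of all probe sets, and 2 were lower, against 16.9%. The 2 tested atypical receptors, Ackr1 at 0.09 and Ackr3, which also binds Cxcl12, at -0.17, did not pass.

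Genes that act on or upstream of chemokines moved in part. In the list of the NF-kB pathway and its inducers 9 of 15 tested genes were higher and 0 lower on their brightest probe sets, with a median of 0.52, against 27.4% and 19.6% of all tested genes. Over all 32 probe sets of the list 15 were higher and 4 lower without the filter, against 18.5% and 16.9% of all probe sets. Ikbkb, a kinase subunit that activates NF-kB, was 0.62 higher on its brightest probe set and 0.85 lower on 1426333_a_at (adjusted p = 4.75e-05 without the filter). Tlr4, the endotoxin receptor, had 7.86, 7.76 and 7.94 in KLF15-null hearts, against 6.57, 6.69, 6.77 and 6.59 in WT hearts (difference 1.20, adjusted p = 8.19e-06), while its other probe set, 1418163_at, was 0.44 lower (adjusted p = 0.00612). Bcl3, Relb and Tlr2 were 1.32, 0.72 and 0.59 higher, Bcl3 from a WT mean below the filter level, while Tnf differed by -0.11 (adjusted p = 0.434). Il6 was below the filter, with 5.80, 4.53 and 5.78 in KLF15-null hearts, against 3.90, 4.05, 3.89 and 3.86 in WT hearts (difference 1.44, adjusted p = 0.00206 without the filter). As for Cxcl1, its KLF15-null array 2 was the lowest of the 3. Of 10 tested interferon response genes 3 were higher (Ifit1 by 1.06, Rsad2 by 0.70 and Usp18 by 0.51), a share near the 27.4% of all tested genes. Irf9 alone was lower, by 0.47, where 19.6% of all tested genes were, and the median was 0.24. The other probe sets of Rsad2 did not follow, with 1421008_at 1.07 lower (adjusted p = 1.57e-05) and 1421009_at at 0.03. In the list of chemokine cleavage and presentation 2 of 9 were higher, Adam10 and Adam17 on their brightest probe sets. In that list 3 were lower, with Sdc2, a heparan sulfate proteoglycan, at -0.79 and Ext2, a heparan sulfate polymerase, at -0.63. The median was -0.28, where 27.4% of all tested genes were higher and 19.6% lower. Over all 26 probe sets of this list 4 were higher and 11 lower without the filter, against 18.5% and 16.9% of all.

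Markers of the cells that make or follow chemokines are given beside the ligands, since in whole hearts more cells of a type and more RNA per cell cannot be told apart. Each count below uses the brightest probe set of a gene, beside 27.4% higher and 19.6% lower over all tested genes. A summed linear signal gives the most weight to the brightest genes of a list. Of 13 tested monocyte and macrophage markers 5 were higher and 2 lower (median 0.31), with summed linear signals of 5260 to 7170 in KLF15-null and 3140 to 5250 in WT hearts. Plac8, Cd14 and Lyve1 were 2.15, 1.64 and 1.05 higher and C1qa was 1.24 lower, and Plac8 had a WT mean below the filter level. On 1453128_at Lyve1 differed by -0.19, not past the threshold (adjusted p = 0.296). Csf1r was 0.90 higher on its brightest probe set (adjusted p = 0.0059). On its others it differed by 0.30 and -0.24, not past the threshold (adjusted p = 0.14 and 0.128). C1qb was 0.77 lower on its brightest probe set (adjusted p = 0.0387, 0.0521 without the filter) and 1.74 and 0.59 higher on its other probe sets (adjusted p = 0.00208 and 0.00869). Cd68 at 0.36 and Adgre1 at 0.08 did not pass, and Itgam was below the filter. Of 6 neutrophil markers 2 were higher, S100a8 by 2.19 and S100a9 by 1.41, a share near that of all genes. Elane, Csf3r, Ngp and Mmp8 lay between -0.17 and -0.02, and Mpo, Camp and Ltf were below the filter (summed signals of 848 to 1020 in KLF15-null and 543 to 649 in WT hearts). S100a8 and S100a9 carry the gap between these sums. Of 5 platelet markers Pf4 alone was higher, and Itga2b at 0.13, Gp9 at -0.11, Gp1bb at -0.17 and Treml1 at -0.17 did not pass (1040 to 1260 in KLF15-null and 654 to 800 in WT hearts). Pf4, itself one of the other CXC ligands, averaged 9.52 in KLF15-null and 8.41 in WT hearts. Itga2b, the next brightest, averaged 7.30 and 7.17, so Pf4 carries the gap between these sums. Of 3 tested lymphocyte markers 0 were higher and Cd4 was 0.23 lower with an adjusted p of 0.0490, or 0.0721 without the filter (290 to 327 in KLF15-null and 304 to 349 in WT hearts). Of 8 endothelial markers 3 were lower and 0 higher, Pecam1 at -2.24 first, with sums of 1790 to 2570 in KLF15-null and 2470 to 2970 in WT hearts. Of 8 fibroblast markers Dcn and Lum were 1.25 and 1.38 lower and Pdgfra 0.53 higher (5660 to 6390 in KLF15-null and 6140 to 11200 in WT hearts). Of 6 mural cell markers Pdgfrb was 1.71 higher and Myh11 1.44 lower on their brightest probe sets (10400 to 11800 in KLF15-null and 6670 to 9820 in WT hearts). On 1417148_at Pdgfrb was 0.43 lower (adjusted p = 0.0448), and Rgs5, which did not pass on its brightest probe set, differed by -3.82, -2.81 and -0.50 on the others, all lower (adjusted p = 8.64e-07, 9.98e-06 and 0.0111). Of 8 cardiomyocyte markers 0 were higher and Ttn was 0.38 lower on their brightest probe sets (98300 to 104000 in KLF15-null and 94200 to 107000 in WT hearts). Other probe sets of these genes fell further, Myh6 1417729_at averaging 3.93 in KLF15-null and 9.27 in WT hearts (difference -5.34, adjusted p = 2.70e-06) and Pln 1423359_at differing by -2.56 (adjusted p = 1.39e-05). Over all 14 probe sets of the list 0 were higher and 5 lower without the filter, against 18.5% and 16.9% of all. The tested erythroid marker, Alas2, did not pass (difference -0.49, list sums of 237 to 277 in KLF15-null and 195 to 493 in WT hearts). The part of these markers in the differences of the ligands was not tested.

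The 250 bases before the start of transcription were read for the 8 ligands with a RefSeq promoter of GRCm38.p6, all but Ccl2 and Ccl7. The motifs were searched on both strands: the NF-kB motif, the CACCC box bound by Krüppel-like factors, a core of the interferon response element (GAAANNGAA) and the AP-1 site (TGANTCA). Shown are Ccl12, the largest rise, the neighbours Ccl9 and Ccl6, which ranked the arrays alike, and Cxcl1 and Cxcl10, with capitals for every match.

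Ccl12: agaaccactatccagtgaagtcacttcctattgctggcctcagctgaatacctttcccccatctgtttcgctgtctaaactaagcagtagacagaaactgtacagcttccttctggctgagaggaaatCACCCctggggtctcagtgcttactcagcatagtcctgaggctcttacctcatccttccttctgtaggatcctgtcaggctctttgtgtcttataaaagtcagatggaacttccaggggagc

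Ccl6: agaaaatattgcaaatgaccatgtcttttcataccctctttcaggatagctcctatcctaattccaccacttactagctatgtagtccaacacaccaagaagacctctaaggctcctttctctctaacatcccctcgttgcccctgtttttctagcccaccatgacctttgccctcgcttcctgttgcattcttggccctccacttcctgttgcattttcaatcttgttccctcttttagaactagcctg

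Ccl9: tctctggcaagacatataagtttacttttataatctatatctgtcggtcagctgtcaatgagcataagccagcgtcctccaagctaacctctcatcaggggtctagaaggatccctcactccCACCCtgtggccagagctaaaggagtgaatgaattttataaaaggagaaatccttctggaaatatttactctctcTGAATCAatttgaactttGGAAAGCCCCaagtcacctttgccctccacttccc

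Cxcl1: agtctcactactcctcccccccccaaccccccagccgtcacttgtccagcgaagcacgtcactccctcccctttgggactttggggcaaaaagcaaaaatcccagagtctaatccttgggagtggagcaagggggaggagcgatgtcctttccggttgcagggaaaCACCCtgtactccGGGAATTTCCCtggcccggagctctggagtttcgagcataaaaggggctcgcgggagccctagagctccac

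Cxcl10: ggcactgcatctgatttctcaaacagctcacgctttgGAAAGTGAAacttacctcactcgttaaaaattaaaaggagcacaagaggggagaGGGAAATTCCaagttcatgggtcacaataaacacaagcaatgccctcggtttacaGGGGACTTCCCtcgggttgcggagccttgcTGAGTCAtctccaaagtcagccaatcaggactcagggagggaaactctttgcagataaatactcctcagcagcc

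They lie at chr11:82101595-82101844 (plus strand), chr11:83593088-83593337 (minus), chr11:83578637-83578886 (minus), chr5:90890995-90891244 (plus) and chr5:92348890-92349139 (minus). The NF-kB motif was found in 3 of the 8 promoters, Ccl9, Cxcl1 and Cxcl10, against 7.25% of all 32851 promoters in the table. In Cxcl1 it lies 71 to 61 bases before the start as 2 overlapping matches, and in Cxcl10 at 159 to 150 and, again overlapping, at 104 to 94. The CACCC box was found in 4 of 8 (Ccl12, Ccl9, Cxcl1 and Cxcl12), against 52.0% of all promoters. The interferon core was found in Cxcl10 alone, 213 to 205 bases before the start, against 7.13%, and the AP-1 site in Ccl9, Cxcl10 and Ppbp, against 6.75%. In the window of Ccl6 none of these motifs was found. Both Ccl9 (on 1417936_at only), with 3 of the motifs, and Ccl6, with none, were higher in KLF15-null hearts. The part of the motifs in these differences was not tested. A match of letters is not a bound site.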

How the data were processed

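Heart RNA was measured on 3 KLF15-null and 4 WT arrays. The deposited table holds log2 signals per probe set, and the submitters' processing notes name GCOS. How the authors summarised and scaled the arrays, and detection calls, are unknown here. Probe sets were named by the platform annotation, and those with several symbols or none got no name. The filter kept every probe set with a 7-array mean at or above the 40th percentile (log2 5.74). These were fitted with limma 3.58.1 (R 4.3.3; lmFit, eBayes with an intensity trend), and p-values were adjusted by Benjamini-Hochberg over all 13576, with a threshold of 0.05. All adjusted p-values of a difference are from limma. For gene counts the probe set with the highest mean stood for its gene. The code was tested on simulated data. Named are all probe sets of the ligands, Klf15 and, for each of 16 lists, up to 4 genes with the smallest p. Cluster neighbours, receptors, Tnf, Il6, Cd68, Adgre1 and Itgam were named for their role. Ikbkb, Csf1r, C1qb, Rgs5, Myh6 and Pln were named for opposed or lower probe sets. All of these were chosen with their values known. The ligands and lists were chosen with earlier results of these data known. Promoters are from RefSeq. Alternatives changed the filter, the scaling, the variance model, the threshold, the probe set of a gene and the arrays used.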

Additional observations from a re-analysis of the deposited data

Results flagged for a closer look

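In 3 of 73 probe sets checked in the WT group, 1 array stood apart from the other 3 by a gap beyond Dixon's 95% critical share of the group's range. Chance marks about 1 in 20 groups. Cxcl12 on 1417574_at had 9.59 on WT array 3, where the next array had 9.41 and the lowest 9.38, a gap of 0.853 of the range. Cx3cl1 on 1415803_at had 6.42 on WT array 4, where the next had 6.33 and the lowest 6.31, a gap of 0.868. Pdgfrb on 1436970_a_at had 9.43 on WT array 3, where the next had 9.05 and the lowest 8.97, a gap of 0.831.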

How the results depend on the processing

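Ccl2, Ccl7, Ccl12, Ccl6, Ccl9 (1417936_at), Cxcl10, Ppbp, Cxcl12 (1448823_at) and Cx3cl1 (1415804_at) kept their direction and call under every alternative that tested them, 12 to 17 each. Of the probe sets called higher 5 were left, and of those lower 0, with the filter at the 60th percentile, which removes the dimmer ones. A filter on the WT mean, chosen after seeing the data, left 6 and 1. Leaving out 1 array gave 7 to 9 higher and 1 lower. Of the 4 probe sets with overlapping groups 3 changed sign, and Cx3cl1 1421610_at did not (0.055 to 0.167). Cxcl12 1417574_at was -0.0106 after quantile and -0.00258 after cyclic loess normalization. Cx3cl1 1415803_at was 0.0762 and 0.0362 under the same, 0.0794 after median centring, 0.00183 with array weights and between -0.0221 and 0.0125 without 1 array. Its difference from 1421610_at was 0.0102 after quantile normalization. Ccl9 1448898_at was 0.0165 after median centring and between -0.166 and 0.053 without 1 array. Cx3cl1 1421610_at passed after median centring (limma adjusted p = 0.0231). Median centring made 63.3% of all calls higher, against 52.9%. Array weights called 44 listed genes higher, against 27. List counts ranged from 5 to 11 higher for NF-kB (9), 1 to 4 for other CC ligands (2), 1 to 5 for the interferon response (3), 0 to 7 lower for cardiomyocyte markers (1) and 0 to 2 lower for lymphocyte markers (1, within 1.5 times in 7 of 20 settings).

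With the replicate number as a block, 9 probe sets of the ligands were higher and 1 lower, Cx3cl1 1415803_at was 0.0125 and Ccl9 1448898_at 0.053. The deviations of same-numbered arrays from their group means had correlations of -0.11, 0.0012 and 0.19. Arrays with different numbers were not compared, so these values cannot tell whether the numbers pair the arrays. The 4 probe set pairs whose responses differed missed the threshold when any array was left out, since fewer splits are then possible. Signals near background limit the folds of Ccl7, Ccl12, Cxcl1 and Cxcl10. Ccl2, Ccl7, Ccl12, Cxcl1, Cxcl10 and Ppbp each had 1 probe set, so no other probe set could check their differences.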
